A study of Rattus norvegicus with 32 samples.

Results

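The markers described here are genes used to tell astrocytes, other glia and neural stem cells apart, and their transcripts were followed in C6 cells, a rat glioma line, after stimulation with angiotensin II (Ang II). The 10 genes are Gfap, S100b, Vim, Nes, Glul, Slc1a2, Slc1a3, Cnp, Sox2 and Olig2. They were chosen by name, as the probes for transcripts whose gene name on the array equals 1 of these symbols. All 10 were found among the 26583 gene names of the array, on 16 of its 30367 probes. Confluent C6 cells, grown with fetal bovine serum, were left without treatment (Control), treated with Ang II at 100 nM, or pre-treated for 30 min with Losartan (Los) or with PD123319 at 10 µM and then given Ang II at 100 nM. Losartan blocks the AT1 receptor and PD123319 the AT2 receptor. RNA was taken at 3 h and at 6 h, with 4 replicates in each of the 8 groups, and each of the 32 samples was hybridized to a single-dye Agilent rat array. All samples come from the same cell line. The sources do not say that the replicates were separate cultures, so the tests measure the spread between these samples, which may be technical.

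Gfap and Vim encode the intermediate filament proteins of mature and immature astrocytes, and Nes encodes nestin, the intermediate filament protein of neural stem and progenitor cells. S100b encodes a calcium-binding protein of astrocytes. Glul encodes glutamine synthetase, which turns glutamate into glutamine, and Slc1a2 and Slc1a3 encode the astrocytic transporters GLT-1 and GLAST, which clear glutamate from the synapse. Cnp encodes a phosphodiesterase of oligodendrocytes and their myelin. Sox2 and Olig2 encode transcription factors, of neural stem cells and of the oligodendrocyte lineage. C6 cells have long been used as a glial model, because they were described as expressing S100b.

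The probes are 60 bases long and their GC content lies between 23.3% and 55%. Gfap, Vim, Glul and Cnp have 1 probe each, and the other 6 genes have 2. The probes of Gfap and Vim and 1 probe of S100b are printed 10 times on the array, and the remaining 13 are printed at 1 spot. The sequences below belong to genes on which the results turn. Sox2 and Cnp are shown because they passed the test in a comparison. Glul and S100b also passed in a comparison, and their probes are not printed here. Vim is shown because its repeated spots are described further on, and the others because they were not detected. Coordinates are those of the array files on build rn4. Among them, Sox2 (chr2:120969725-120969784, plus strand), Cnp (chr10:89524880-89524939, plus strand) and Vim (chr17:87851390-87851449, plus strand) were detected on every array. Slc1a2 (chr3:87988366-87988425 for its first probe and chr3:87992261-87992320 for its second, both on the plus strand), Slc1a3 (chr2:58272281-58272340, minus strand) and Olig2 (chr11:31206731-31206790, plus strand) were detected on none. Letters are written 5′ to 3′ as the array files give them. The capitals in the second Slc1a2 probe mark a TAA triplet at base 52, the earliest stop triplet when the probe is read from its first base.
Sox2 A_44_P506024: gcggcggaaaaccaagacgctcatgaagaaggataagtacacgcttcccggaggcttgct
Cnp A_44_P100207: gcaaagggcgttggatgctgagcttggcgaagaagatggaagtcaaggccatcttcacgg
Vim A_42_P509365: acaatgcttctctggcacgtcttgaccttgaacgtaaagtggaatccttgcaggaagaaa
Slc1a2 A_64_P031123: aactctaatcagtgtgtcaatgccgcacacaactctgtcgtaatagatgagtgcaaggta
Slc1a2 A_64_P033800: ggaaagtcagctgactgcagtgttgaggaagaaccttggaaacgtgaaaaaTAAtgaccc
Slc1a3 A_64_P021516: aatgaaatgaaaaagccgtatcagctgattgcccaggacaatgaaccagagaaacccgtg
Olig2 A_64_P144128: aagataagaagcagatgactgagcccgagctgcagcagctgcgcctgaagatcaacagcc

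C6 cells carried signal for 6 of the 10 markers, and the other 4 were not well above background on nearly all arrays. A probe counts as detected on an array when the scanner software calls more than 50% of its spots well above background. Vim, Nes, S100b, Glul, Cnp and Sox2 had a probe detected on all 32 arrays. Of all 26583 gene names, 11916 had a probe detected on all 16 arrays of 3 h and 14948 on all 16 of 6 h. Slc1a2, Slc1a3 and Olig2 were detected on 0 of 32 arrays by either of their probes. Gfap was detected on 0 of 16 arrays at 3 h and on 2 of 16 at 6 h. Nes and Sox2 were detected on all 32 arrays by both of their probes. Of the 16 probes, 8 were detected on all arrays, 7 on none, and the Gfap probe on 2. The software was run with different settings for the 3 h and the 6 h arrays, and the share of spots well above background ranged from 55.9% to 64.7% over the 3 h arrays and from 64.2% to 79.8% over the 6 h arrays, so that neither detection nor levels can be compared between the time intervals.

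Gfap, the defining filament gene of astrocytes, had a processed signal between -0.19 and 2.53 scanner units at 3 h. The lowest signal that the software called well above background lay between 4.25 and 8.57 on the same arrays, so that every 3 h array stood below it. None of the 148 usable Gfap spots at 3 h was called, and 14 of 151 were called at 6 h. All 14 lie on the slide of replicate 1. The Ang II+PD123319 array of that slide had a mean signal of 17.9, with 9 of its 9 usable spots called, and its Control array had 9.14, with 5 of 9 called. The Ang II array and the Ang II+Los array of the same slide had 4.06 and 3.15, with 0 spots called. On the other 3 slides of 6 h, Gfap was between 1.91 and 4.85. No group had Gfap detected on all of its 4 arrays, and the gene was not tested.

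The glutamate transporters of astrocytes and Olig2 were not detected on any array. The first Slc1a2 probe gave between -2.48 and 1.71 units at 3 h and between 0.98 and 3.17 at 6 h, and the second between -2.33 and 3.96 and between 1.17 and 5.69. The Slc1a3 probe printed above gave between -3.31 and 2.20 at 3 h and between 1.48 and 3.74 at 6 h. The other Slc1a3 probe reached 7.05 on a Control array of 3 h and 8.03 on an Ang II array of 6 h, and neither spot was called. The value of 7.05 lay above the lowest signal called well above background on its array, which was 4.25. The Olig2 probe printed above gave between -2.58 and 4.38 at 3 h and between 1.55 and 6.31 at 6 h. The second Olig2 probe stayed under 2.77 at 6 h, and at 3 h it reached 9.40 on an Ang II+PD123319 array without being called. The 6.31 and the 9.40 also lay above the lowest signal called on their arrays, which was 5.06 and 6.93. No fold change is given for these genes, since none was detected in either group of any comparison.

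S100b was measured by 2 probes, whose positions on the minus strand of chromosome 20 are 50 bases apart, and they differed in detection. The probe at chr20:12791789-12791848 was detected on all 32 arrays, with a signal between 387.6 and 3778 units. The probe at chr20:12791899-12791958, which is printed 10 times, was detected on 0 of 32 arrays. Its highest array mean was 0.31 units at 3 h and 2.74 at 6 h, and 0 of 149 usable spots were called at each time interval. Every value of S100b given further on is that of the detected probe.

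**Figure D1:**
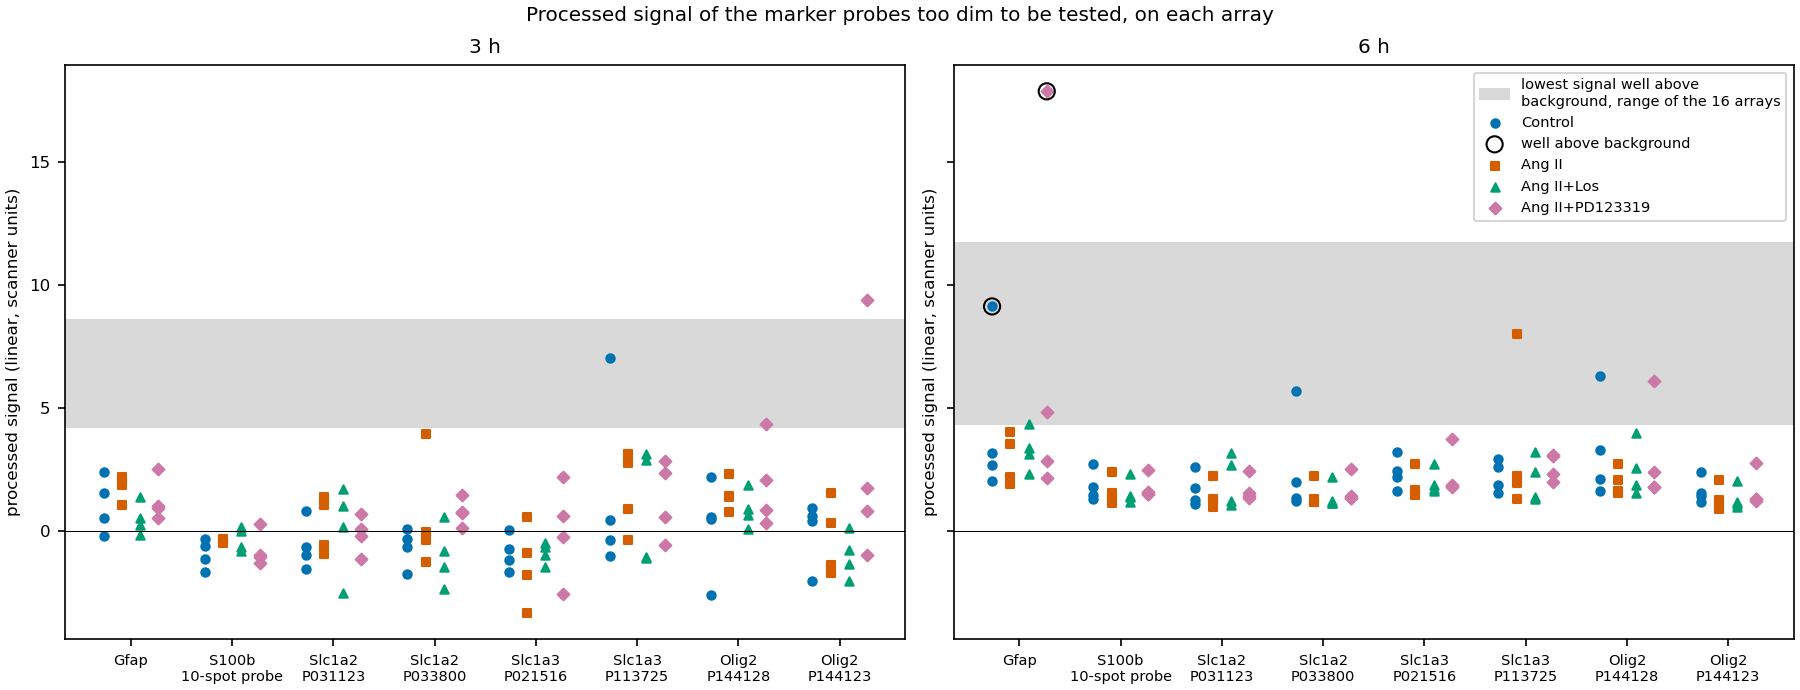
Processed signal in linear scanner units (y axis) of the 8 marker probes that were too dim to be tested, on each array of 3 h (left) and 6 h (right), with 1 point per array and the groups in different symbols; the grey band is the range over 16 arrays of the lowest signal called well above background. The 2 circled points, Gfap on the Control array (9.14) and the Ang II+PD123319 array (17.9) of replicate 1 at 6 h, are the only ones detected.

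The signals of the 6 detected markers were set on a log2 scale and normalized between arrays, separately for 3 h and 6 h. The probes kept for a gene were averaged. Each slide carried 1 array of every group of its time interval, and the replicate number is the slide. Within a slide the 4 groups always took the same positions, so that position and treatment cannot be told apart. The levels of these markers differed more between slides than between groups. The means of the 4 slides spanned 2.47 log2 units for Cnp and 2.00 for Vim at 3 h, against 1.22 and 0.64 for the means of the 4 groups. At 6 h, the slide means of Vim spanned 1.82 units and its group means 0.11. Nes had the smallest span of slide means of the 6 markers at both time intervals, with slide means spanning 0.295 at 3 h and 0.20 at 6 h and group means spanning 0.03 and 0.15. The comparisons were therefore made within slides.

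The array of replicate 2 with Ang II+Los at 3 h stood apart from the others. Its spread about the group and slide terms, as the root mean square over 13318 genes, was 0.43 log2 units, and the next highest array at 3 h had 0.31. On that slide, 17.9% of all genes tested differed by more than 1 log2 unit between Ang II+Los and Ang II, against 6.09%, 0.17% and 1.68% on the slides of replicates 1, 3 and 4. The changes of the markers with Losartan at 3 h are given with and without it.

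**Figure D2:**
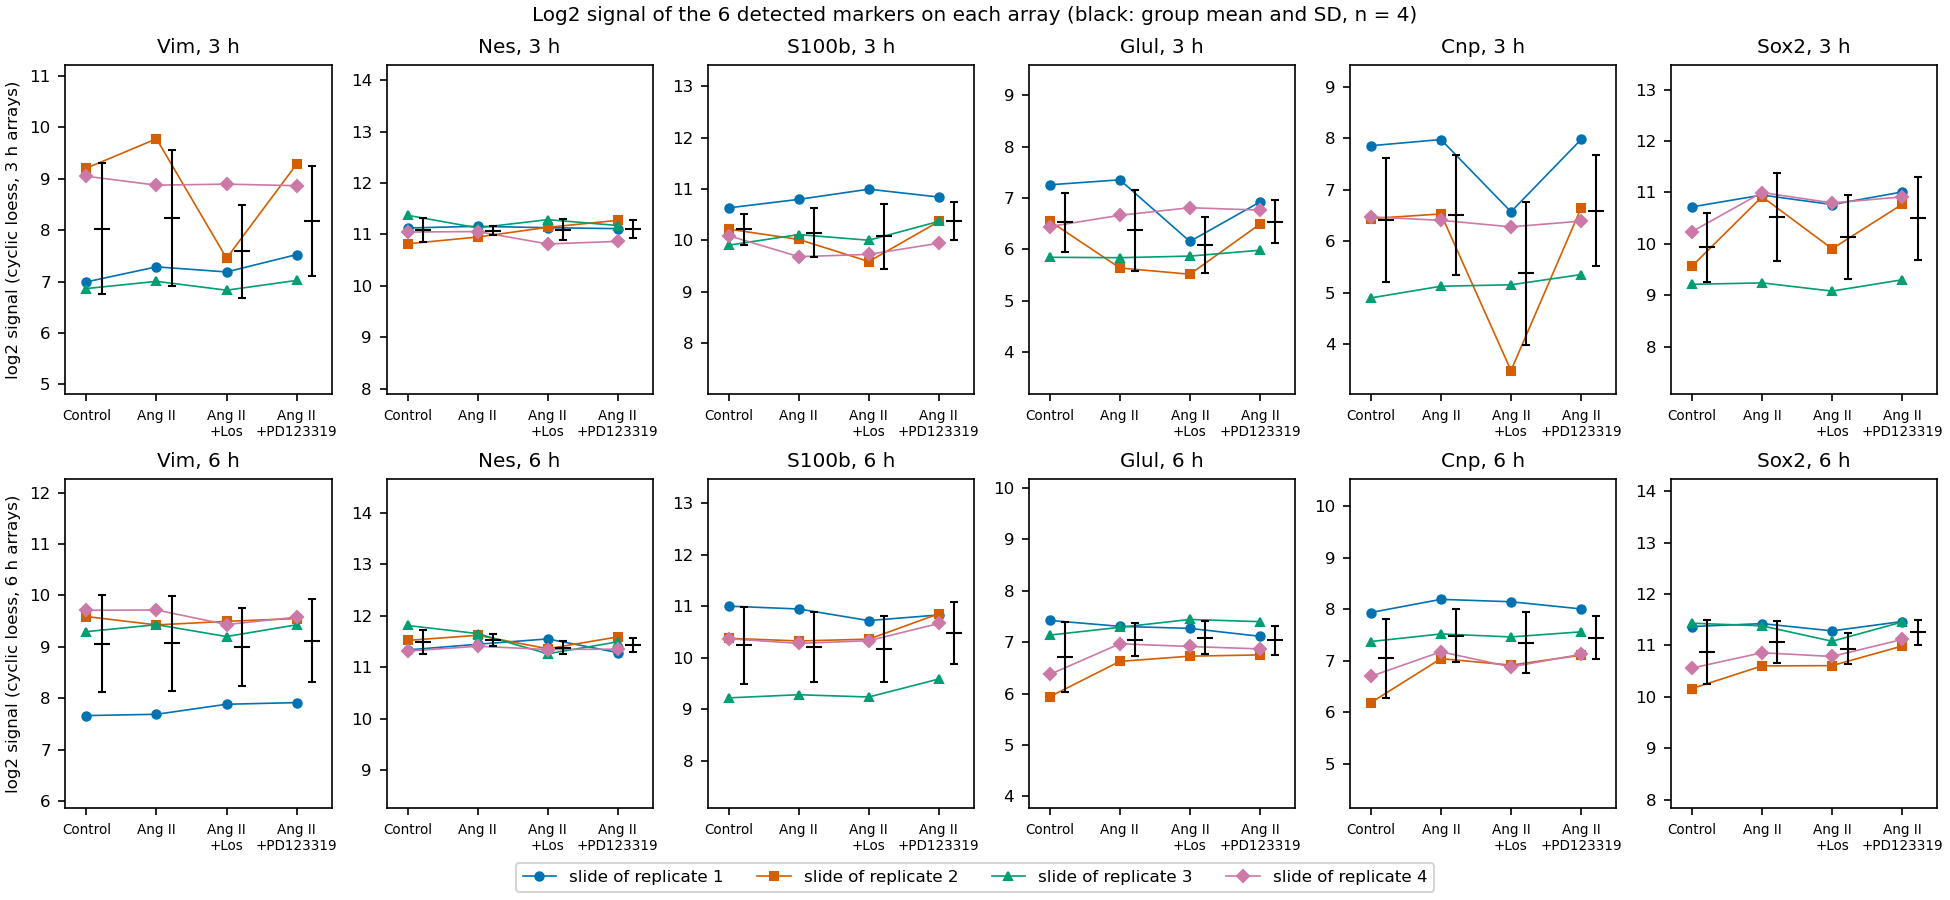
Log2 signal (y axis, normalized within each time interval) of Vim, Nes, S100b, Glul, Cnp and Sox2 in the 4 groups (x axis) at 3 h (upper row) and 6 h (lower row), with a coloured line for the 4 arrays of a slide and the group mean with SD (n = 4) in black; every panel spans the same number of log2 units. Lines lie further apart than the group means, and Cnp and Vim drop on the Ang II+Los array of replicate 2 at 3 h, to 3.48 and 7.46.

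Genes were called at an unadjusted p under 0.05 in limma, the limit the study used for differentially expressed (DE) genes, with all genes of the time interval in the fit. In Ang II x Control, 1 of the 6 tested markers passed at 3 h (Sox2, higher with Ang II), where 12.7% of all 13628 genes passed, and 2 of 6 passed at 6 h (Cnp and Glul, both higher), where 21.5% of all 16441 genes passed. With Losartan before Ang II, compared with Ang II alone, 1 of 6 passed at 3 h (Cnp, lower with Losartan) and 0 of 6 at 6 h, where 11% and 2% of all genes passed. With PD123319 before Ang II, 0 of 6 passed at 3 h and 1 of 6 at 6 h (S100b, higher with PD123319), where 3.01% and 6.37% of all genes passed. Each of these counts lies within 1 gene of the count that the share of all genes would give for 6 genes, and none stands apart from it. After Benjamini-Hochberg adjustment over all genes, 0 markers passed in any comparison, as did 0% of all genes. The median log2 fold change of the 6 markers in Ang II x Control was 0.04 at 3 h and 0.11 at 6 h, and that of all genes was 0.00 and -0.01. With Losartan it was -0.34 and -0.09, against 0.00 for all genes at both, and without the array that stood apart it was -0.18 at 3 h. The Losartan counts at 3 h rested largely on that array, since without it 0 of the 6 markers and 261 of all 13628 genes, or 1.92%, passed. With PD123319 it was 0.06 and 0.02.

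**Figure D3:**
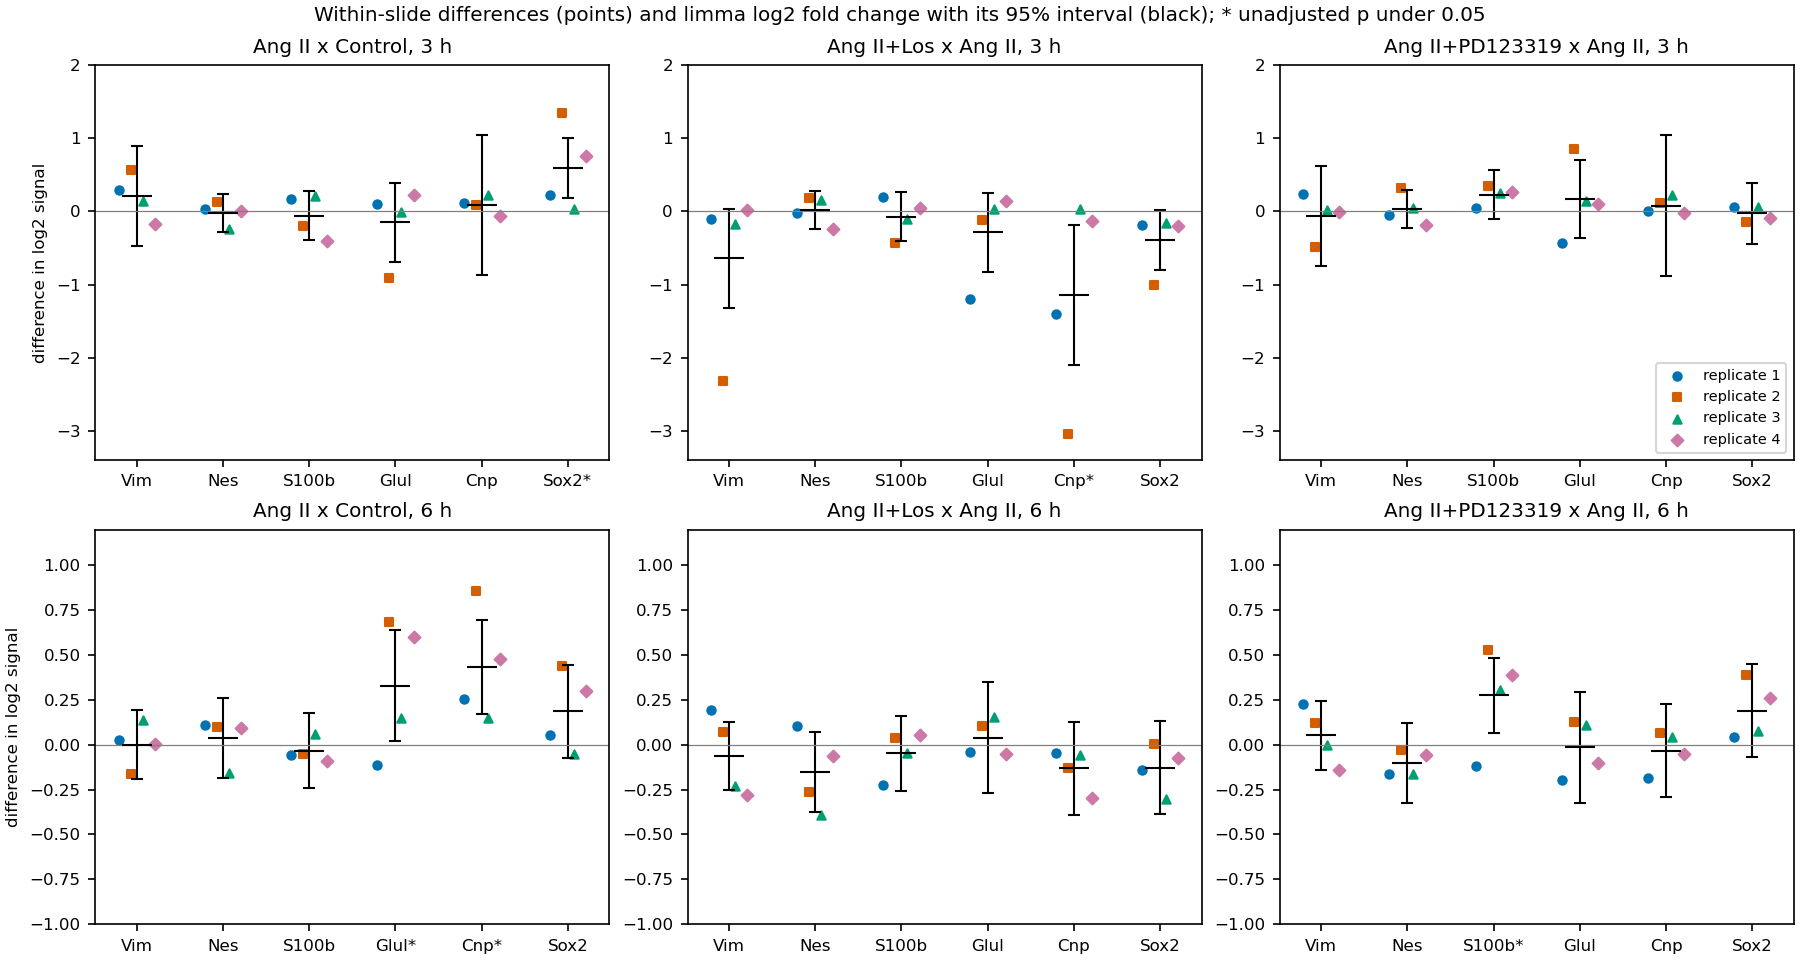
Differences in log2 signal (y axis) of the 6 tested markers (x axis) in the 3 comparisons at 3 h (upper row, wider axis) and 6 h (lower row), with 1 coloured point per slide, the limma log2 fold change with its 95% interval in black, and an asterisk for an unadjusted p under 0.05. Sox2 at 3 h and Cnp at 6 h lie above 0 on all 4 slides in Ang II x Control, and the Cnp and Vim points of replicate 2 in the Losartan panel of 3 h lie at -3.04 and -2.32.

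Sox2, the stem cell factor, rose with Ang II at 3 h in this fit, past the unadjusted limit only. Its log2 signal on the Control arrays of replicates 1 to 4 was 10.72, 9.57, 9.21 and 10.24, and on the Ang II arrays it was 10.95, 10.92, 9.24 and 11.00. The groups overlapped, and the Ang II array was the higher one on each slide, by 0.23, 1.35, 0.03 and 0.76. Fitted over the slides, the log2 fold change was 0.59 with a standard error (SE) of 0.19 (limma adjusted p = 0.322), which is 1.51-fold. Both Sox2 probes, 542 bases apart on chromosome 2, gave a higher value with Ang II, at 0.72 for the probe printed above and 0.47 for the other. The fold change was 0.34 without replicate 2 and still past the limit, and without replicate 4 it was 0.54 and not past it.

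At 6 h, Sox2 did not pass in Ang II x Control. The Control arrays had 11.37, 10.16, 11.43 and 10.56 and the Ang II arrays 11.42, 10.60, 11.38 and 10.86, so that the values of the groups were interleaved. The fitted difference was 0.19 (SE 0.12, limma adjusted p = 0.378). The change at 6 h minus the change at 3 h was -0.41 (SE 0.23, limma adjusted p = 0.7), so a difference between the time intervals was not shown.

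With Losartan, Sox2 at 3 h was 10.76, 9.90, 9.08 and 10.80, lower than with Ang II alone on all 4 slides. This comparison shares the Ang II arrays with Ang II x Control. The fitted difference of Ang II+Los from Ang II was -0.39 (SE 0.19, limma adjusted p = 0.426), which did not pass, and it was -0.28 without the array that stood apart. With PD123319 at 3 h it was -0.03 (SE 0.19). At 6 h the 2 antagonists gave -0.13 and 0.19 (SE 0.12 each). The Ang II+PD123319 array was the highest of its slide for Sox2 on all 4 slides of 6 h, and this difference from Ang II alone did not pass (limma adjusted p = 0.85).

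Nes, the other stem cell marker, did not pass in any of the 6 comparisons. Its log2 fold changes lay between -0.15 and 0.04, with SEs of 0.12 at 3 h and 0.10 at 6 h. With Losartan at 3 h it had 0.02, and -0.02 without the array that stood apart. The group means at 3 h were 11.09 ± 0.23 in Control, 11.07 ± 0.09 with Ang II, 11.09 ± 0.20 with Ang II+Los and 11.11 ± 0.17 with Ang II+PD123319 (SD, n = 4). At 6 h they were 11.495 ± 0.23, 11.53 ± 0.12, 11.38 ± 0.12 and 11.43 ± 0.14 (SD, n = 4), in the same order. The 95% interval of the Nes fold change in Ang II x Control extended 0.26 to either side of -0.02 at 3 h and 0.22 to either side of 0.04 at 6 h. Its 2 probes, 359 bases apart on chromosome 2, gave -0.13 and 0.10 at 3 h in this comparison, and neither passed.

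Vim had nearly the same level in Control and with Ang II at 6 h and varied most on the slide of replicate 2 at 3 h. At 3 h, its log2 signal was 7.00, 9.21, 6.87 and 9.05 in Control and 7.29, 9.78, 7.00 and 8.88 with Ang II. Values near 7 and near 9 occurred in both groups, according to the slide. This is a difference of 0.21 (SE 0.31, limma adjusted p = 0.795). At 6 h it was 0.00, with a 95% interval of 0.19 to either side.

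The Vim values with Ang II+Los at 3 h were 7.19, 7.46, 6.83 and 8.90. Against Ang II alone, the slides gave -0.10, -2.32, -0.17 and 0.02, and the fit gave -0.64 (SE 0.31, limma adjusted p = 0.426), which did not pass. The size rested on replicate 2, since it was -0.17 without the array that stood apart, and without replicate 4 it was -0.86 and passed. The probe is printed 10 times, and the SD of its spots on an array had a median of 0.10 log2 units at 3 h and 0.06 at 6 h, with a highest value of 0.20. The 10 spots of the array that stood apart had an SD of 0.10 and a mean signal of 179.5 units before normalization, and those of the Ang II array on that slide had an SD of 0.05 and a mean of 1924. The 75th percentile of the log2 signal of these arrays was 8.31 and 9.52. With PD123319, the fold changes of Vim were -0.06 at 3 h and 0.05 at 6 h.

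**Figure D4:**
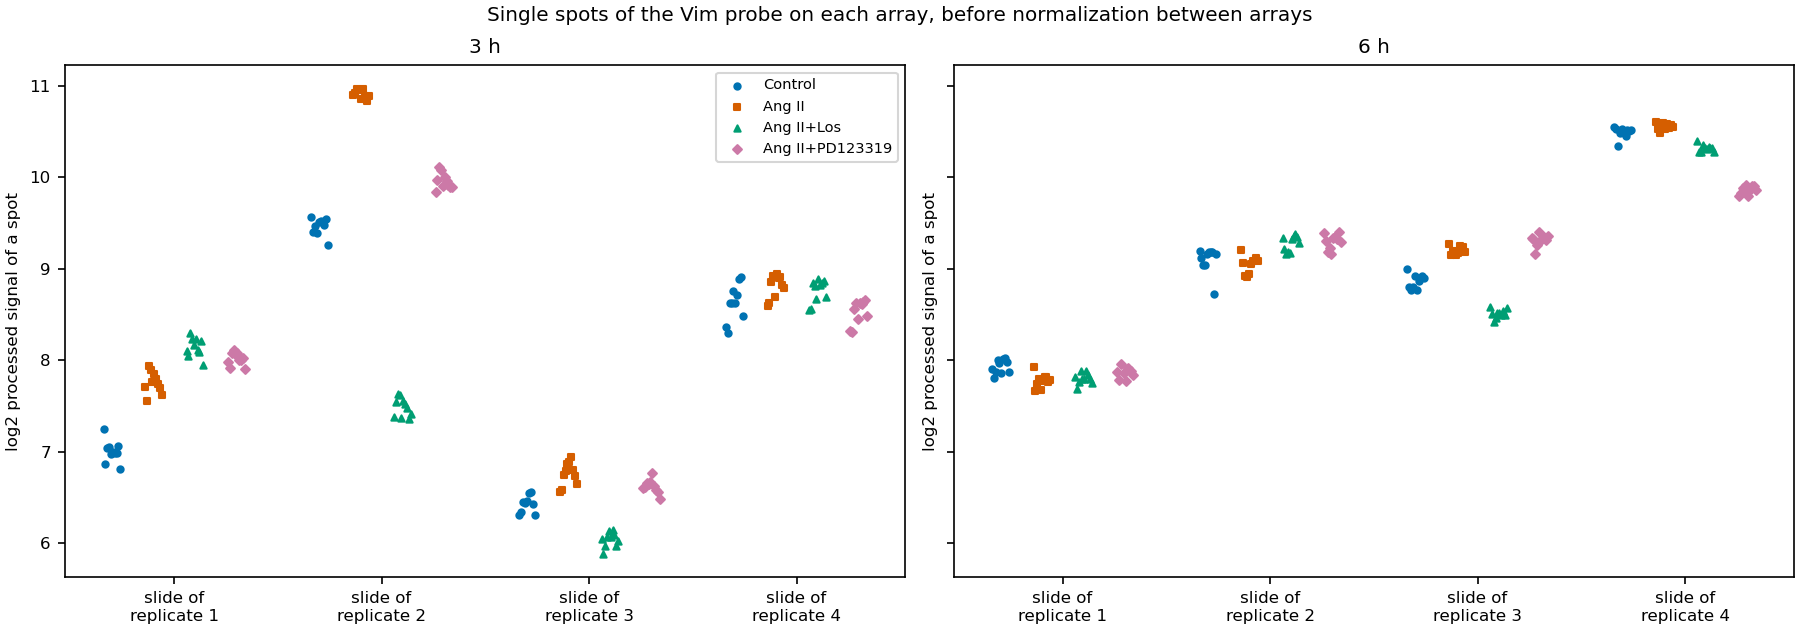
Log2 processed signal before normalization between arrays (y axis) of the single spots of the Vim probe, 8 to 10 per array after outliers were left out, on the 16 arrays of 3 h (left) and of 6 h (right), ordered by slide and with the groups in different symbols. Spots of an array lie close together (median SD 0.10 and 0.06), while arrays and slides lie far apart.

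S100b rose with PD123319 at 6 h in this fit, on 3 of 4 slides and past the unadjusted limit only. Its log2 signal with Ang II alone was 10.95, 10.33, 9.28 and 10.28, and with Ang II+PD123319 it was 10.83, 10.86, 9.59 and 10.67. The groups overlapped, and the slides gave -0.12, 0.53, 0.31 and 0.39, with replicate 1 in the opposite direction. The fitted difference was 0.28 (SE 0.10, limma adjusted p = 0.639), which is 1.21-fold. It no longer passed without replicate 2 (0.19), without replicate 3 (0.27) or without replicate 4 (0.24), nor when the undetected probe was averaged in (0.08).

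At 3 h, S100b with PD123319 was higher than with Ang II alone on all 4 slides, by 0.04, 0.35, 0.26 and 0.26. The mean difference of 0.23 (SE 0.15, limma adjusted p = 1) did not pass. In Ang II x Control, S100b had -0.06 at 3 h and -0.03 at 6 h, and with Losartan it had -0.07 and -0.05. Without the array that stood apart, the Losartan value at 3 h was 0.07. The group means of S100b in Control were 10.21 ± 0.31 at 3 h and 10.24 ± 0.74 at 6 h (SD, n = 4).

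Glul, the glutamine synthetase gene, rose with Ang II at 6 h in this fit, past the unadjusted limit only. Control had 7.42, 5.94, 7.14 and 6.37 in replicates 1 to 4, and Ang II had 7.31, 6.63, 7.29 and 6.97. The groups overlapped, and the slides gave -0.11, 0.69, 0.15 and 0.60. The fit gave 0.33 (SE 0.14, limma adjusted p = 0.213), which is 1.26-fold and higher on 3 of 4 slides. It no longer passed without replicate 2 (0.21), without replicate 3 (0.39) or without replicate 4 (0.24), and with the normexp background it was 0.21 and passed. The Glul probe has no position in the array files.

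Glul at 3 h had 7.26, 6.55, 5.85 and 6.45 in Control and 7.36, 5.64, 5.84 and 6.67 with Ang II. Replicate 2 was lower with Ang II, by 0.91 log2 units, and the other slides gave 0.10, -0.01 and 0.22. The fit gave -0.15 (SE 0.25, limma adjusted p = 0.815), which did not pass, and it was 0.10 without replicate 2. With Losartan at 3 h, Glul had -0.29 (SE 0.25), or -0.18 without the array that stood apart, where replicate 1 gave -1.20 and the other slides lay between -0.12 and 0.15. With PD123319 it had 0.17 at 3 h, and at 6 h the 2 antagonists gave 0.04 and -0.01.

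Cnp, the oligodendrocyte gene, rose with Ang II at 6 h in this fit, past the unadjusted limit only. Its Control values were 7.94, 6.18, 7.37 and 6.70, and its values with Ang II were 8.19, 7.04, 7.52 and 7.17. The groups overlapped, and every slide was higher with Ang II, by 0.26, 0.86, 0.15 and 0.48. The fitted log2 difference was 0.44 (SE 0.12, limma adjusted p = 0.106), which is 1.35-fold. Control was the lowest of the 4 arrays on all 4 slides for this gene. Cnp passed with each replicate left out in turn, with values between 0.29 and 0.53, and with every background correction, scaling and filter run, and it did not pass without the slide as a block.

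At 6 h, Cnp with Losartan was 8.15, 6.91, 7.46 and 6.88, and with PD123319 it was 8.01, 7.11, 7.56 and 7.12. The difference from Ang II alone was -0.13 (SE 0.12) with Losartan and -0.03 (SE 0.12) with PD123319, and neither passed. At 3 h, Cnp in Control was 7.86, 6.44, 4.89 and 6.47 and with Ang II 7.98, 6.53, 5.12 and 6.404, a difference of 0.09 (SE 0.44).

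Cnp fell with Losartan at 3 h in this fit. Its values with Ang II+Los were 6.57, 3.48, 5.15 and 6.28, and the slides gave -1.41, -3.04, 0.03 and -0.13. Replicates 1 and 2 were lower with Losartan, and replicates 3 and 4 were close to 0. The fit gave -1.14 (SE 0.44, limma adjusted p = 0.426), which is 0.455-fold. It was -0.50 and did not pass without the array that stood apart, and likewise without replicate 2. Without replicate 1 it was -1.05 and did not pass, and with the normexp background it was -0.52 and passed. The spot signal on the array that stood apart was 9.79 units, near the lowest signal called well above background there, which was 6.70. Replicates 1 and 2 are also the slides of scan 1 and replicates 3 and 4 those of scan 2, and the part of the scan was not tested. With PD123319 at 3 h, Cnp had 0.08 (SE 0.44).

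The group means of the tested markers had an order, and few neighbours in it differed beyond the spread of their slides. A pair of neighbours was counted when its mean within-slide difference was larger than the SD of that difference over the 4 slides. At 3 h, 1 of 18 such pairs was counted, Sox2 with Ang II+PD123319 over Sox2 with Ang II+Los, by 0.36 ± 0.34 (SD, n = 4), and it was 0.19 ± 0.07 (SD, n = 3) without the array that stood apart. At 6 h, 2 of 18 were counted, Cnp with Ang II+Los over Cnp in Control, by 0.30 ± 0.29, and Sox2 with Ang II+PD123319 over Sox2 with Ang II, by 0.19 ± 0.16 (SD, n = 4). Over all genes without gaps, 9.63% of such pairs were counted at 3 h and 11.4% at 6 h.

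Other genes of the same cell types and pathways were looked up in lists, and limma adjusted p was at least 0.101 for each gene named from them. These hold 161 further genes, of which 157 were found on the array and 82 were tested at 3 h and 100 at 6 h. In Ang II x Control, 11 of 82 passed at 3 h (1 higher and 10 lower), or 13.4%, and 19 of 100 at 6 h (8 higher and 11 lower), or 19%, against 12.7% and 21.5% of all genes. With Losartan, 5 of 82 passed at 3 h (all lower), or 6.1%, against 11% of all genes, and 0 of 82 without the array that stood apart, against 1.92%. At 6 h, 1 of 100 passed (lower), against 2% of all genes. With PD123319, 3 of 82 passed at 3 h (2 higher and 1 lower), or 3.66%, against 3.01%, and 9 of 100 at 6 h (6 higher and 3 lower), against 6.37%. Astrocytic genes were detected in part. Of the 21 further astrocyte genes, 7 were detected on all 16 arrays at 3 h, among them Aldoc, Gja1, Sox9, Apoe and Clu, and 12 at 6 h. Of all 26583 gene names, 11916 and 14948 were so detected at 3 h and 6 h. Fabp7 and Slc7a10 were detected on 0 arrays at both time intervals. In Ang II x Control at 3 h, Gja1, the gene of the gap junction protein connexin 43, fell by 0.29 (SE 0.11) and Acsbg1, a fatty acid ligase gene, by 0.42 (SE 0.18). At 6 h Fgfr3, a growth factor receptor gene, rose by 0.36 (SE 0.13). With PD123319 at 6 h, Ndrg2 rose by 0.19 (SE 0.08).

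Of the 16 genes of the oligodendrocyte lineage, 6 were detected on all arrays of 3 h and 9 on all arrays of 6 h, among them Sox10, Nkx2-2, Cspg4 and Pdgfra at both. Of all 26583 gene names, 11916 and 14948 were so detected at 3 h and 6 h. Mbp and Mog, myelin genes, were detected on 0 arrays at 3 h. Gpr17 and Mobp fell with Ang II at 3 h, by 0.34 and 0.41, and Olig1, the gene of a factor related to Olig2, fell by 0.23 at 6 h, where Cnp rose. With PD123319 at 6 h, Gpr17 rose by 0.29 and Olig1 fell by 0.24. Of the 24 stem and progenitor genes on the array, 11 and 16 were detected on all arrays of 3 h and of 6 h. Pou5f1 and Hey1 fell with Ang II at 3 h, by 0.61 and 0.39, and rose with PD123319 against Ang II at that time, by 0.47 and 0.42. These comparisons share the Ang II arrays. In each, they were the only 2 of the 13 tested genes of the list that passed, against 12.7% and 3.01% of all genes. The median log2 fold change of the 13 genes was 0.03 and 0.01. Hey1, like Mobp, was not detected on all 16 arrays of 3 h. Id2 fell by 1.03 with Losartan at 3 h, where the array that stood apart gave -2.75 against Ang II. Without that array it was -0.52 and did not pass. With that array in the fit, 3 of the 13 tested genes of the list passed, all lower, against 11% of all genes. The median log2 fold change of the 13 genes was 0.19, in the other direction. Notch2 fell by 0.26 with Losartan at 6 h. Pou5f1 rose by 0.24 with PD123319 at 6 h. 

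Among 13 further intermediate filament genes on the array, 3 of 6 tested rose with Ang II at 6 h and 0 of 5 passed at 3 h, where 21.5% and 12.7% of all genes passed. The lamin genes Lmnb1 and Lmnb2 were among the 3, with 0.38 and 0.26. Des, the desmin gene, fell by 0.23 with PD123319 at 6 h. Of the 17 genes of glutamate handling, 11 were detected on all arrays of both time intervals, among them the neuronal and epithelial glutamate transporter gene Slc1a1 and the neutral amino acid transporter genes Slc1a4 and Slc1a5. Of all 26583 gene names, 11916 were detected on all arrays of 3 h and 14948 on all of 6 h. In Ang II x Control, Slc7a11, the gene of the cystine and glutamate exchanger, fell by 0.35 (SE 0.11) at 3 h and by 0.67 (SE 0.24) at 6 h. The slides gave -0.07, -1.29, -0.06 and -1.25 for it at 6 h. Glud1, the glutamate dehydrogenase gene, rose by 0.45 (SE 0.18) at 3 h. Of the genes of reactive astrocytes, 0 of 14 passed at 3 h, and 1 of 16 rose and 4 fell with Ang II at 6 h, against the same shares of all genes. Steap4 (-0.55), Timp1 (-0.23) and Cxcl10 (-0.31) were among those that fell and were lower on all 4 slides. The sizes were uneven, with -0.31, -0.34, -1.12 and -0.44 on the slides for Steap4. For Cxcl10 the slides gave -0.01, -0.98, -0.06 and -0.20. Steap4 was not detected on all 16 arrays of 6 h.

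Markers of other cell types were also detected in these cells, so that detection alone does not tell a cell type. Of the 12 neuronal genes on the array, 4 at 3 h and 6 at 6 h were detected on all 16 arrays, as were 6 and 8 of 12 microglial genes, 3 and 6 of 12 endothelial and mural genes, and 6 and 6 of 11 mesenchymal genes. Of all 26583 gene names, 11916 and 14948 were so detected. Ptprc, a defining marker of blood-derived cells, was detected on 0 arrays, and Pecam1, of endothelium, likewise. Other genes of the same lists, among them Aif1, Itgam, Cx3cr1 and Vwf, were detected on all arrays of both time intervals. In Ang II x Control at 3 h, Cx3cr1 fell by 1.11 (SE 0.26) and Pdgfrb by 0.49 (SE 0.19). At 6 h, Twist1 rose by 0.28. Of the 7 tested mesenchymal genes, 1 passed higher and 3 lower, where 21.5% of all genes passed. Tyrobp fell by 0.24, and of the 8 tested microglial genes 1 passed higher and 1 lower. With PD123319, Flt1 fell by 0.38 at 3 h, and Tyrobp (0.41) and Aif1 (0.39) rose at 6 h. Flt1 was not detected on all 16 arrays of 3 h. Both Tyrobp comparisons of 6 h share the Ang II arrays. With Losartan at 3 h, Eno2 fell by 0.30, and without the array that stood apart it was -0.23 and did not pass. The part of these genes in the marker results was not tested.

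The genes whose pattern over the arrays was most like that of a marker were named by the lower of 2 Pearson correlations, over the 16 arrays of 3 h and the 16 of 6 h, after the mean of each slide was taken off. The values describe 13231 genes, which share arrays, slides and normalization. The array that stood apart is among the 16 of 3 h, and no value is given without it. For the genes named with Cnp and Vim, the lower correlation was that of 6 h. Cnp was most like Bhlhe40 (0.92) and the unnamed probe A_64_P088257 (0.90), Sox2 like RGD1308093 (0.85) and Cbx6 (0.84), and Glul like Hoxa9 and Gltp (0.85 and 0.84). Vim was most like Cdk4 (0.84) and Snd1 (0.80), S100b like the unnamed probe A_64_P028920 (0.76) and Lpcat2 (0.70), and Nes like Med25 (0.70) and Tfip11 (0.69). Among the markers themselves, Glul and Cnp had 0.67 at 3 h and 0.84 at 6 h. Vim and Cnp had 0.88 at 3 h, where both dropped on the array that stood apart, and -0.09 at 6 h.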

How the data were processed

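The scanner files hold the intensity of each spot, from which the authors' software (Agilent Feature Extraction 9.5.3.1, per the labels) had subtracted the background. The deposited log2 values (38.2% blank) equal the log2 of this intensity and were used as an alternative. Outlier spots were dropped, and signals at 3 h that were not significantly positive or lay under their error were replaced by that error, as the software did at 6 h. Spots of a probe were averaged. Cyclic loess (3 iterations, span 0.7) was run among the 16 arrays of a time interval. A probe was kept when well above background on all 4 arrays of a group and with at most 2 gaps. Genes were fitted in limma 3.58.1 (R 4.3.3) with the replicate number as a block, two-sided, with Benjamini-Hochberg adjustment, and the fit was tested on simulated data. Arrays of the same number shared a slide, and their deviations from the group means correlated between 0.15 and 0.92 at 3 h and between 0.55 and 0.83 at 6 h. Precision is limited by the number of arrays, and the median standard error was 0.16 at 3 h and 0.10 at 6 h. Alternatives were the deposited values, normexp background (offset 50), 75th percentile scaling, other filters, single probes, no block, the methods' paired t-test and leaving out replicates. The markers and lists were chosen with earlier results of these data known. In each list and comparison, up to 3 genes with the lowest p under 0.05 and the same direction on all 4 slides were named. Figures were drawn with matplotlib 3.10.9.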

Additional observations from a re-analysis of the deposited data

Results flagged for a closer look

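In 5 of 48 groups of 4 arrays, the highest or lowest array lay far from the other 3, by a gap that chance gives in about 1 of 20 independent groups. The groups of a marker at a time interval share their slides and are not independent, so the 5 of 48 cannot be set against that rate. Sox2 on the slide of replicate 3 at 3 h had 9.24 with Ang II and 9.30 with Ang II+PD123319, and the other arrays of these groups lay between 10.77 and 11.01. Vim on the slide of replicate 1 at 6 h had 7.69 with Ang II and 7.91 with Ang II+PD123319, and the others lay between 9.42 and 9.71. S100b on the slide of replicate 3 at 6 h had 9.59 with Ang II+PD123319, and the others lay between 10.67 and 10.86. In each case the remaining arrays of that slide were low as well.

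For Cnp in Ang II+Los x Ang II, the change at 6 h minus the change at 3 h was 1.01 log2 units (standard error 0.48, limma adjusted p = 0.704). This was past the unadjusted limit and not the adjusted one, so a difference between the time intervals was not shown. The value was 0.37 and did not pass without the Ang II+Los array of replicate 2 at 3 h. It also did not pass without replicate 1 (0.89), without replicate 2 (0.37), with the normexp background (0.42), with no filter or with no replicate block (1.01 in both).

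Gfap was not among the genes tested, and its processed signal was 17.9 units on the Ang II+PD123319 array of replicate 1 at 6 h, above the highest Control array (9.14, also replicate 1). The other 3 arrays of that group lay between 2.18 and 4.85.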

How the results depend on the processing

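The replicate number was the slide, and without the replicate block 0 markers passed the limit in any comparison (Ang II x Control at 3 h and 6 h, Losartan at 3 h and PD123319 at 6 h fell to 0 from 1, 2, 1 and 1). By the methods' paired t-test these counts were 0, 1, 0 and 0, and 0 after Benjamini-Hochberg. The counts over all genes fell as well. In the fit reported they were 1731 of 13628, 3534 of 16441, 1503 of 13628 and 1048 of 16441, in the same order. Without the block they were 354, 662, 343 and 124. By the paired t-test they were 303 of 13362, 1048 of 16370, 66 of 13600 and 220 of 16421. With the normexp background Losartan at 3 h had 2 markers past the limit, and without the array that stood apart, an alternative chosen after seeing the data, 0. Of all 13628 genes, 1593 and 261 passed there. With no filter PD123319 at 6 h had 0 markers, where 1594 of 26582 genes passed. Leaving out each replicate number gave marker counts of 0 to 1, 1 to 2, 0 to 2 and 0 to 1 for the same 4 comparisons, and 0 to 1 for the difference of Ang II x Control between the time intervals, which was 0. For these 4 comparisons, 781 to 1832, 1882 to 3822, 272 to 1848 and 450 to 1601 of all genes passed. The other comparisons, Losartan at 6 h and PD123319 at 3 h, had 0 markers past the limit under every alternative run.

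In all, 32 of the refitted fold changes of the markers changed sign, none of them past the limit in the fit reported. With the deposited values Vim in Ang II x Control at 6 h was -0.001. With the normexp background it was -0.096, Nes was 0.004 in Ang II x Control and -0.008 with Losartan at 3 h, and at 6 h S100b in Ang II x Control was 0.019 and Glul with Losartan -0.016. By 75th percentile scaling S100b with Losartan at 3 h was 0.016 and Glul with PD123319 at 6 h 0.013. By the probe A_64_P148321 alone Nes was 0.098 in Ang II x Control and -0.031 with Losartan at 3 h. Without the array that stood apart, Nes and S100b with Losartan at 3 h were -0.021 and 0.073.

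Leaving out each replicate gave, in Ang II x Control at 3 h, -0.067 to 0.058 for Nes, -0.147 to 0.057 for S100b and -0.273 to 0.103 for Glul, and at 6 h -0.045 to 0.055 for Vim. With Losartan at 3 h it gave -0.037 to 0.107 for Nes, -0.165 to 0.044 for S100b and -0.431 to 0.018 for Glul, and at 6 h -0.147 to 0.011 for Vim and -0.078 to 0.014 for S100b. With PD123319 at 3 h it gave -0.161 to 0.082 for Vim, -0.064 to 0.108 for Nes, -0.062 to 0.366 for Glul and -0.058 to 0.012 for Sox2, and at 6 h -0.006 to 0.116 for Vim, -0.062 to 0.045 for Glul and -0.065 to 0.02 for Cnp. The causes were not tested. Among all genes in Ang II x Control at 6 h, 0 passed the adjusted limit, and 69 did with the filter on all 16 arrays, 57 with the deposited values and 330 without replicate 3. Signal near background limits Gfap, Slc1a2, Slc1a3 and Olig2.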
